A study of Mus musculus with 8 samples.

Results

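Natural killer (NK) cells are lymphocytes of the innate immune system that read the surface of neighbouring cells through paired sets of activating and inhibitory receptors. Activating receptors signal through adaptor proteins that recruit tyrosine kinases, whereas inhibitory receptors recruit phosphatases that oppose this signal, and the balance sets whether granules and cytokines are released. The uterus holds a resident NK cell population that expands in early pregnancy and takes part in remodelling of the decidua and its vessels. Most of these receptors in the mouse are C-type lectin-like proteins encoded side by side in the NK gene complex, and NKp46, the product of *Ncr1*, is an immunoglobulin-like protein encoded elsewhere.

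Expression of 10 NK cell receptor genes was examined at postnatal day 10 (PD10) in uteri with conditional deletion of *Ezh2*, a histone H3 lysine methyltransferase, by *Amhr2*-Cre (cKO) and in control uteri. The genes were *Ncr1* and 9 killer cell lectin-like receptor genes, taken by symbol from 27179 Entrez genes with deposited read counts. Each of the 8 libraries was made from the whole uterus of a mouse. The 4 control mice were homozygous for the floxed *Ezh2* allele (f/f) and the 4 cKO mice carried the same alleles together with *Amhr2*-Cre, so that all animals had the floxed gene and Cre was present in the cKO group only. *Amhr2*-Cre acts in cells that arise from the mesenchyme of the reproductive tract, whereas NK cells derive from the blood-forming lineage. The mice were kept on a mixed C57BL/6/129SvEv background, and strains differ in the gene content of the Ly49 family (*Klra* genes) and can differ in *Klrb1* alleles. The share of each strain in each mouse is not labelled, so that strain and genotype cannot be told apart for these genes.

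Between 25287141 and 36685807 reads per library were counted on genes. Of the 10 genes, 7 passed the filter (CPM, counts scaled to library size, over 0.2 in at least 4 libraries) and were among the 16658 genes tested with edgeR's quasi-likelihood test. *Klrc2*, *Klra4* and *Klra8* were under the filter and are given by their counts. Levels are TMM-normalized CPM, fold changes compare cKO with control, and differentially expressed (DE) genes differed more than 2-fold with adjusted *p* under 0.05. The targeted gene, *Ezh2*, averaged 45.0 ± 8.70 CPM over the 4 control and 36.8 ± 4.41 CPM over the 4 cKO libraries (SD), the genotypes overlapped, and its adjusted *p*-value was 0.247, so that its level did not mark the genotype. The count covers all exons and all cells of the organ, including those without Cre. Transcripts of epithelium (*Krt8*), stroma (*Pdgfra*) and smooth muscle (*Myh11*) had at least 8296 counts in every library. Fat cell transcripts summed to 3.00 to 4.67 CPM per control library, to 4.90 CPM in cKO replicate 4, and to 105, 231 and 106 CPM in the other cKO libraries. Control replicates 1 and 2 stood apart in MHC class I transcripts, with 10530 and 8049 counts of *H2-K1* against 3020 and 3899 in control replicates 3 and 4 and 3077 to 3498 in cKO libraries.

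Most of these genes lie side by side and are active in the same lineage, and sequences in front of their start sites are shown before their levels. The 250 bases in front of an annotated start, the first listed for each gene, were taken from RefSeq (GRCm38.p6). It held a window for 9 of the 10 genes, *Klrd1* being the exception. Other starts were not examined. The *Klrc1* window lies inside the annotated gene (129666015 to 129682852), as does that of *Klre1* (129559365 to 129585828). The windows of *Klrk1*, *Klrc2* and *Klra4* overlap an end of the annotated gene. Capitals mark the hexamer TGTGGT or its reverse complement ACCACA, the core bound by RUNX factors, which are known to act in NK cell development. The windows of *Ncr1*, *Klrk1*, *Klrb1c* and *Klrc1* are printed as genes that were DE, and that of *Klrb1b* as the tested gene that was not.
*Ncr1*, chr7:4337465-4337714, plus strand: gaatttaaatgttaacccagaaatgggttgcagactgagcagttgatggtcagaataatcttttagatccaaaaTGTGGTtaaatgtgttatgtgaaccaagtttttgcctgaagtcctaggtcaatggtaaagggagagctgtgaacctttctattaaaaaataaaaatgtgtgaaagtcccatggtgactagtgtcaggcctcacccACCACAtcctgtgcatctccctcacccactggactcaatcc
*Klrk1*, chr6:129623865-129624114, minus strand: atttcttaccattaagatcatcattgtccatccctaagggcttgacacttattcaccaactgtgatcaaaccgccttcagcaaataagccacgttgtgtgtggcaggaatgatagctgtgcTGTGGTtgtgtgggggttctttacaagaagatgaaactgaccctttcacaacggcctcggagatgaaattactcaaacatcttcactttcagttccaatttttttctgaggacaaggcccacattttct
*Klrb1c*, chr6:128788642-128788891, minus strand: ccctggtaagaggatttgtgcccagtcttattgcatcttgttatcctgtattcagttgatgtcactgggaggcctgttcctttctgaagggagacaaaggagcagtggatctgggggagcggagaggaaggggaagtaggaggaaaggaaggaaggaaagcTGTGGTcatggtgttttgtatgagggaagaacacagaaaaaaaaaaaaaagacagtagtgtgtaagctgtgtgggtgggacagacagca
*Klrc1*, chr6:129678974-129679223, minus strand: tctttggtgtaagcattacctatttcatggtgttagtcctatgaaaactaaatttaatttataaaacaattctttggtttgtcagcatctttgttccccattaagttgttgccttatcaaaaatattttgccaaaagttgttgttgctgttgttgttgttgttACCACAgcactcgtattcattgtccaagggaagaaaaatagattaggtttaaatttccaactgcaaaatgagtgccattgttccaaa
*Klrb1b*, chr6:128826316-128826565, minus strand: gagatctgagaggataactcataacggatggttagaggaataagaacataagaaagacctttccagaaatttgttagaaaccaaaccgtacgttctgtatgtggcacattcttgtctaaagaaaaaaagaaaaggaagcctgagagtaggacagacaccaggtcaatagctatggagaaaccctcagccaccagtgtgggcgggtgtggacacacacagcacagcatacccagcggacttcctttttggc

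The RUNX hexamer was present on either strand in 6 of the 9 windows (*Ncr1*, *Klrk1*, *Klrb1c*, *Klrc1*, *Klre1* and *Klrc2*) and in 14.2% of 27025 windows of the same length over all genes. The copy nearest to the start used here began 41 bases before it in *Ncr1*, 129 in *Klrk1*, 89 in *Klrb1c*, 87 in *Klrc1*, 229 in *Klre1* and 9 in *Klrc2*. Its place was thus not shared among these windows. The hexamer GGTGTG (T-box factors) was found in 1 of the 9 windows, that of *Klrb1b*, and in 16.2% of all windows. TTCNNNGAA (STAT factors) and CGGAAG (ETS factors) were in 0 of the 9 windows and in 7.18% and 13.8% of all windows. Copies of different motifs may overlap, the motifs were chosen with the sequences in view, and a match to letters is not evidence of binding.

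Of the 7 genes tested, 6 were DE and lower in cKO uteri, whereas 0.636% of all genes tested were DE and lower and 0.666% DE and higher. The filter can be passed through the 4 control libraries alone. *Klrc1* passed it in this way, since none of its cKO libraries exceeded 0.2 CPM. The 6 DE genes became 3 without control replicate 1, 1 without control replicates 1 and 2, and 0 with a fat score as a covariate. The fat score was the mean log2(CPM + 0.1) of the 6 fat cell genes tested. Over all genes, the 106 DE and lower became 85, 83 and 24 in the same fits. With the fat score and with cKO replicate 4 as the only cKO library, *Ncr1* was at -3.14 and -3.22 on the log2 scale against -2.29 as reported. *Klre1* was at -1.86 and -1.59 against -2.19. In both fits *Klrk1*, *Klrb1c* and *Klrd1* also lay further below 0 than as reported, and *Klrc1* and *Klrb1b* nearer to it. The DE genes were *Ncr1*, *Klrk1* and *Klrb1c* among activating receptors, *Klrc1* among inhibitory receptors, and *Klrd1* and *Klre1*, whose products pair with other chains. The median log2 fold change of the 7 was -2.19, against 0 over all genes tested. The 10 genes together had 199 to 385 counts per control library and 61 to 90 counts per cKO library. Summed over the 10 genes, the level was 8.55 ± 2.75 CPM for controls and 2.58 ± 0.603 CPM for cKO (SD over 4 mice per genotype), so that 30.2% of the control level was left. In bulk tissue, fewer NK cells and less receptor mRNA in each of them cannot be told apart.

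**Figure D1:**
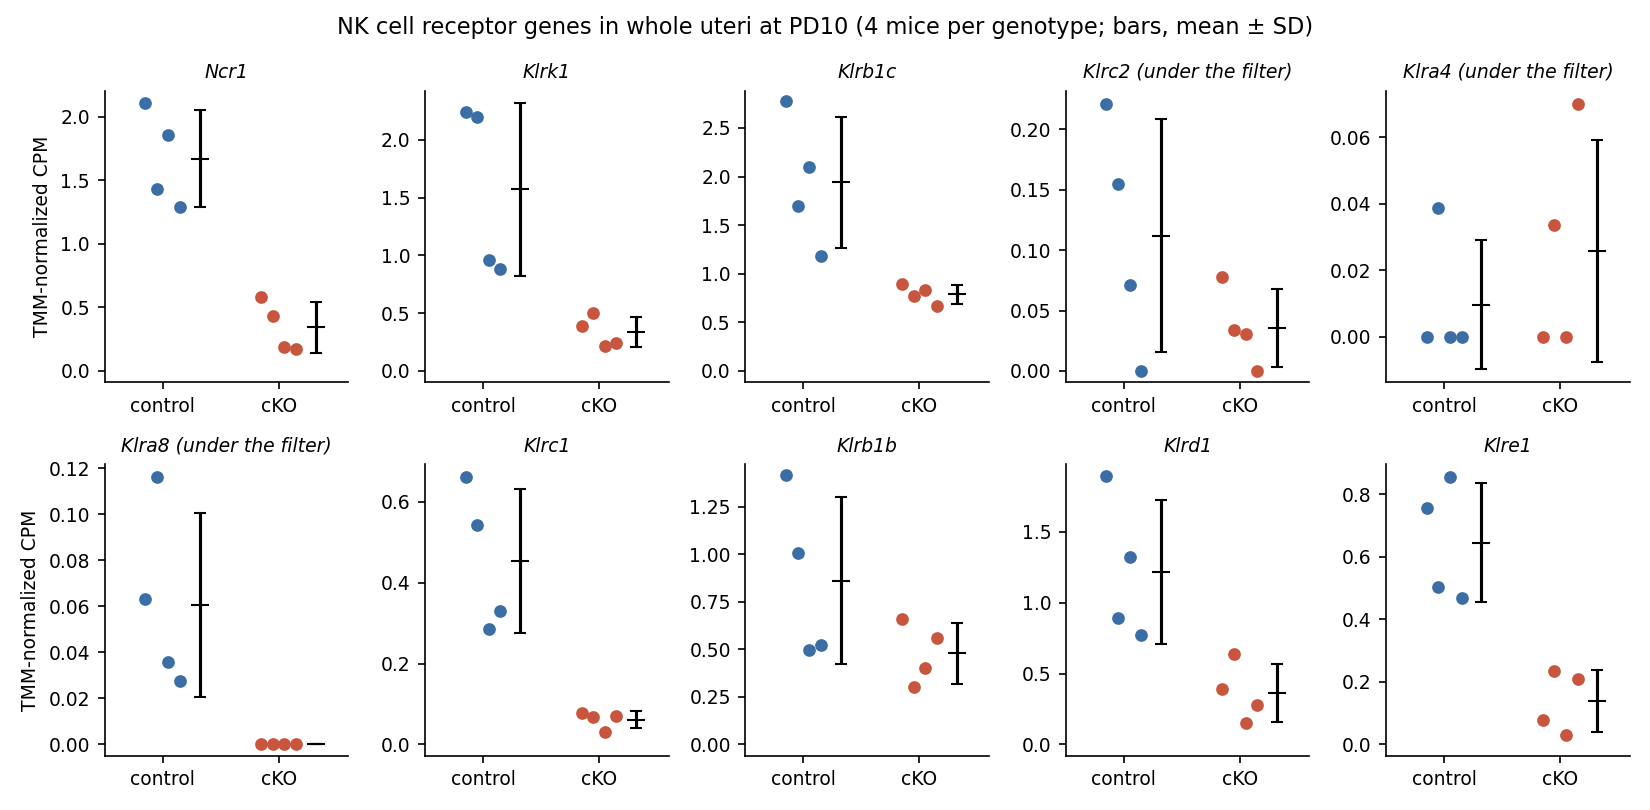
TMM-normalized CPM of each receptor gene (vertical axes, a scale for each gene) in the 4 control (blue) and 4 cKO (red) libraries, with the mean and SD in black; points from left to right are replicates 1 to 4. The libraries of the genotypes do not overlap for *Ncr1*, *Klrk1*, *Klrb1c*, *Klrc1*, *Klrd1*, *Klre1* and *Klra8*, and overlap for *Klrb1b*, *Klrc2* and *Klra4*.

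The activating receptors were considered first. *Ncr1* (chromosome 7, 4337715 to 4345184 in GRCm38) encodes NKp46, which marks NK cells and part of the other innate lymphoid cells. It had 67, 37, 52 and 47 counts in control replicates 1 to 4 and 15, 13, 6 and 5 counts in cKO replicates 1 to 4. Every cKO library was under every control library, as was the case for 6.43% of all genes tested, and the reverse held for 5.9%. Of the 10 receptor genes, 7 showed this order, 6 of them among the 7 tested. The mean fell from 1.67 to 0.344 CPM with SDs of 0.379 and 0.199, which is 4.90-fold (log2 scale -2.29, standard error 0.35, adjusted *p* = 0.00236).

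*Klrk1* encodes NKG2D, a receptor for stress-induced MHC class I-like ligands that is also found on some T cells. Its counts were 71, 57, 27 and 32 in control and 10, 15, 7 and 7 in cKO libraries. Control replicates 1 and 2, at 2.24 and 2.20 CPM, held more than the other controls, at 0.963 and 0.879 CPM, and all exceeded the highest cKO library, at 0.502 CPM. The fitted change was -2.20 on the log2 scale (standard error 0.41) with an adjusted *p*-value of 0.00759. Without control replicates 1 and 2 together it was -1.44 and the adjusted *p*-value was 0.0702.

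*Klrb1c* encodes NKR-P1C, the antigen by which NK cells of C57BL/6 mice are commonly identified. Its counts were 88, 44, 59 and 43 in control and 23, 23, 27 and 19 in cKO libraries. The cKO values lay close together (0.790 ± 0.0971 CPM) and the control values were spread (1.94 ± 0.673 CPM; SD, n = 4 each), without overlap. This was the smallest fall in edgeR among the 6 DE genes, 2.45-fold (log2 scale -1.29, standard error 0.27, adjusted *p* = 0.0168). The adjusted *p*-value was 0.0626 without control replicate 1 (log2 scale -1.06) and 0.0506 without cKO replicate 2 (-1.28).

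The remaining activating receptors were hardly detected. *Klrc2*, which encodes NKG2C, had 7, 4, 2 and 0 counts in control and 2, 1, 1 and 0 counts in cKO libraries. Pooled over 4 libraries each, this was 13 against 4 counts, a ratio of control to cKO of 3.11 with a 95% exact interval of 0.960 to 13.1 that covers counting error only. *Klra8*, which encodes Ly49H, a receptor for a viral protein of mouse cytomegalovirus, had 2, 3, 1 and 1 counts in control and 0 in all cKO libraries. The genotypes did not overlap (p = 0.029, exact two-sided permutation test, the smallest that 4 mice against 4 allow), and for 7 against 0 pooled counts the 95% exact interval of the ratio of control to cKO began at 1.38. No library was above 3 counts, the limit that a count of 0 allows, and no fold is given. *Klra4*, which encodes Ly49D, had 1 count in control and 3 counts in cKO libraries in all. Fitted without the filter, these genes had unadjusted *p*-values of 0.122 (*Klrc2*), 0.014 (*Klra8*) and 0.374 (*Klra4*) and adjusted *p*-values of 0.422, 0.146 and 0.642 in edgeR, none of which passed.

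The inhibitory receptors gave unlike results. *Klrc1* encodes NKG2A, which pairs with CD94 and recognizes the class Ib molecule Qa-1. Its counts were 21, 14, 8 and 12 in control and 2, 2, 1 and 2 in cKO libraries. Pooled, 55 counts stood against 7, a ratio of control to cKO of 7.51 (95% exact interval 3.41 to 19.6 for counting error). The fitted log2 fold change, -2.83 (standard error 0.50, adjusted *p* = 0.00579), depends on the prior count because all cKO libraries were at 1 or 2 counts, and with a prior count of 2 it was -2.03. *Klrc1* remained DE in each of the 8 fits that left out a library, and without control replicates 1 and 2 together it was -2.29 with an adjusted *p*-value of 0.0615.

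*Klrb1b* encodes an inhibitory receptor of the NKR-P1 family that binds the Clec2d protein. It had 45, 26, 14 and 19 counts in control and 17, 9, 13 and 16 counts in cKO libraries. Control replicates 3 and 4, at 0.499 and 0.522 CPM, lay within the range of the cKO libraries, 0.301 to 0.660 CPM, and only control replicates 1 and 2 were above it. On the log2 scale the difference was -0.85 with a standard error of 0.39 (adjusted *p* = 0.236), and it was -0.11 without control replicates 1 and 2. *Klrb1b* was thus the tested receptor gene whose difference did not exceed the spread between mice.

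Both partner chains were lower. *Klrd1* encodes CD94, the shared partner of NKG2A and NKG2C. It had 60, 23, 37 and 28 counts in control and 10, 19, 5 and 8 counts in cKO libraries. The highest cKO library (0.636 CPM) was near the lowest control (0.769 CPM), without overlap. The fall was 3.34-fold (log2 scale -1.74, standard error 0.41, adjusted *p* = 0.0287). Its adjusted *p*-value was above 0.05 without control replicate 1 (0.107) or 3 (0.0689) and without cKO replicate 1 (0.0777) or 3 (0.0782). The log2 fold changes in these fits were, in the same order, -1.43, -1.69, -1.77 and -1.47.

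*Klre1* encodes a chain without signalling motifs of its own that pairs with the products of *Klri1* and *Klri2*. Its counts were 24, 13, 24 and 17 in control and 2, 7, 1 and 6 in cKO libraries. The level fell from 0.646 ± 0.191 to 0.138 ± 0.0993 CPM (SD, n = 4 each), or 4.57-fold, with an adjusted *p*-value of 0.0179 in edgeR. Without control replicate 1 or 3 or cKO replicate 1 the adjusted *p*-values were 0.0612, 0.0530 and 0.0611. The log2 fold changes in these fits were -2.10, -2.03 and -2.02, against -2.19 with all libraries. *Klri2*, an activating partner, was at 0.391 ± 0.241 and 0.151 ± 0.0832 CPM (SD, n = 4 each; adjusted *p* = 0.174 in edgeR), and *Klri1*, an inhibitory partner, had 0 to 4 counts per library.

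By role, 3 of 3 activating receptors tested were DE and lower, as were 1 of 2 inhibitory receptors and 2 of 2 partner chains. The 6 activating genes summed to 5.37 ± 1.67 CPM for controls and 1.53 ± 0.383 CPM for cKO. The 2 inhibitory genes summed to 1.32 ± 0.616 and 0.542 ± 0.172 CPM, and the 2 partner genes to 1.86 ± 0.666 and 0.503 ± 0.281 CPM (SD, n = 4 each). The level left in cKO uteri was 28.6% for activating, 41.2% for inhibitory and 27.0% for partner genes. Per kilobase of the transcript with the longest coding sequence, control levels were 1.33 ± 0.553 CPM for *Klrd1*, 1.24 ± 0.592 for *Klrk1*, 1.17 ± 0.406 for *Klrb1c* and 1.14 ± 0.259 for *Ncr1* (SD, n = 4 each), which did not differ beyond their spread. *Klre1* (0.499 ± 0.148), *Klrb1b* (0.387 ± 0.197) and *Klrc1* (0.229 ± 0.0897) followed on the same scale, lower than *Ncr1* by more than their spread, and *Klre1* did not differ from *Klrb1b*, or *Klrb1b* from *Klrc1*, beyond theirs. This order depends on the length used. Over the length of all annotated exons, control levels per kilobase were 1.08 CPM for *Ncr1*, 0.952 for *Klrd1*, 0.655 for *Klrb1c*, 0.387 for *Klrb1b*, 0.229 for *Klrc1*, 0.219 for *Klrk1* and 0.185 for *Klre1*.

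Similar sequence limits what can be said of some genes. Coding sequences of *Klrc1* and *Klrc2* were identical at 82.8% of 714 aligned bases, with a longest identical run of 100 bases. Those of *Klrb1b* and *Klrb1c* were identical at 85.7% of 666 aligned bases, and those of *Klra4* and *Klra8* at 78.6% of 786. Stretches of 50 bases that also occur in transcripts of another gene made up 40.3% of *Klrc1*, 38.9% of *Klrc2*, 33.1% of *Klra8*, 29.7% of *Klrb1c*, 29.0% of *Klrb1b* and 4.68% of *Klra4*. *Ncr1*, *Klrk1*, *Klrd1* and *Klre1* shared 0 such stretches. How the counting treated reads with several matches is not given in the sources used here.

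The 9 lectin receptor genes lie on chromosome 6, between 128778485 and 130129898 in GRCm38, a span of 1.35 Mb that also holds genes of other functions. Of 17 killer cell lectin-like receptor genes counted in this span, 9 were tested, all had negative log2 fold changes (-2.83 to -0.63), and 6 had an adjusted *p*-value under 0.05 and were lower. Of 22 other genes in between, 9 were tested in edgeR, 0 were lower and 1 was higher at that threshold, with a median log2 fold change of -0.10. At an unadjusted *p* under 0.05, 1 of these 9 was lower and 1 higher, and DESeq2 and limma-voom each called 1 of the 9. The higher gene was the noncoding *BC064078* (0.38, standard error 0.08, adjusted *p* = 0.0134), named after its value was seen. *Cd69*, an activation marker of lymphocytes that was under the filter, had 6, 10, 5 and 11 counts in control and 2, 1, 2 and 3 in cKO libraries, without overlap, and was also named after its counts were seen. Next to *Klre1* lies *Gabarapl1*, an autophagy gene expressed widely, with a log2 fold change of 0.00 (standard error 0.06). Over all genes tested, 2.71% were lower and 2.62% higher with an adjusted *p*-value under 0.05.

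**Figure D2:**
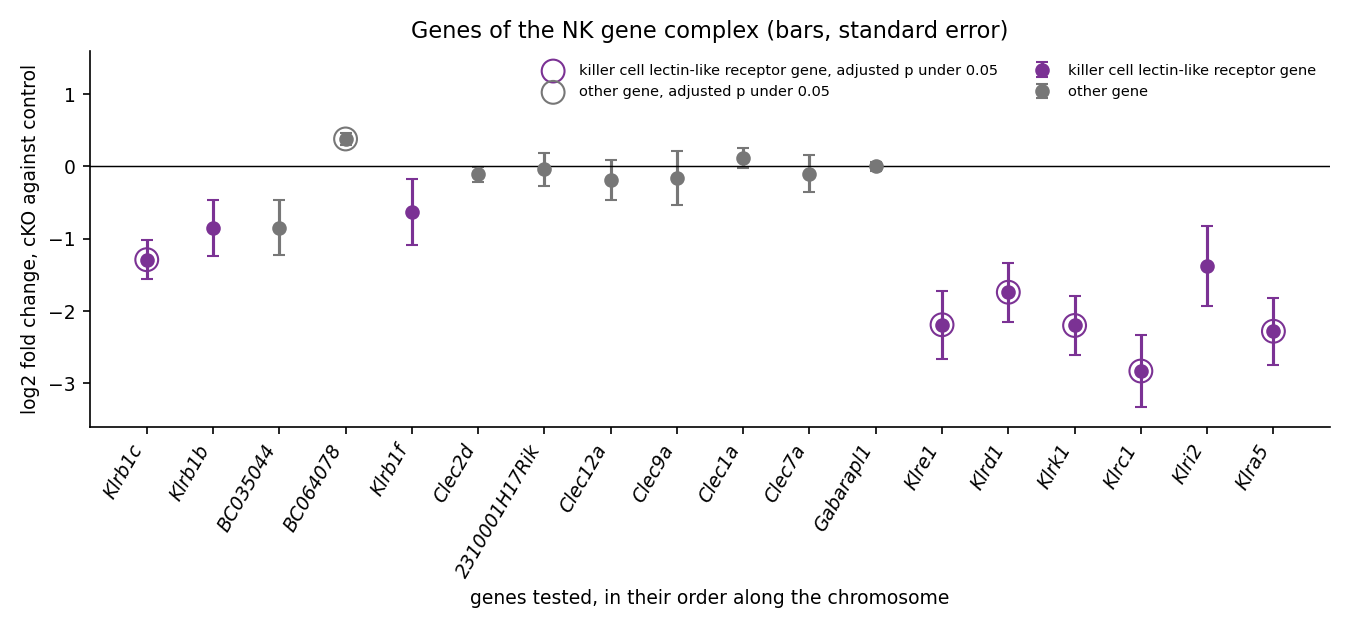
Log2 fold change, cKO against control, with its standard error (vertical axis) for the 18 genes tested between *Klrb1c* and *Klra8*, in their order along chromosome 6 (horizontal axis, not to scale). Killer cell lectin-like receptor genes (purple) lie at -0.63 or lower, the other genes (grey) lie between -0.85 and 0.38, and rings mark adjusted *p*-values under 0.05.

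Further killer cell lectin-like receptors were examined as a list of 18 genes, of which 6 were tested. *Klra5*, which encodes Ly49E, was DE and lower, with 18, 10, 21 and 19 counts in control and 2, 4, 1 and 6 in cKO libraries (log2 fold change -2.28, standard error 0.46, adjusted *p* = 0.0128). The others tested were *Klrb1a* (-1.31, adjusted *p* = 0.110), *Klri2* (-1.38), *Klrb1f* (-0.63), *Klrg1* (0.28) and *Klrg2* (0.59), of which all but *Klrb1a* had adjusted *p*-values from 0.174 to 0.750. *Klrg1*, a cadherin receptor of mature NK and T cells, had 4 to 14 counts in control and 6 to 14 in cKO libraries. Among Ly49 genes under the filter, *Klra2* had 22, 13, 8 and 7 counts in control and 3, 3, 2 and 4 in cKO libraries.

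No adaptor or signalling gene downstream of the receptors passed the test. Of 15 genes tested from a list of 18, edgeR, DESeq2 and limma-voom called 0 after adjustment, and 2 had an unadjusted *p*-value under 0.05 in edgeR, both lower. Their median log2 fold change was -0.13. The list summed to 552 to 605 CPM in control and 538 to 548 CPM in cKO libraries, without overlap. *Tyrobp*, which encodes the adaptor DAP12 of activating Ly49 and NKG2C receptors, was at 10.2 ± 1.94 and 8.64 ± 0.578 CPM, and *Hcst*, which encodes DAP10, the partner of NKG2D, at 0.426 ± 0.132 and 0.254 ± 0.129 CPM (SD, n = 4 each). *Fcer1g* (log2 fold change -0.29) and *Cd247* (-0.35), adaptors of NKp46, and the kinases *Syk* (0.12) and *Zap70* (-0.15) had adjusted *p*-values from 0.310 to 0.767. These genes are also expressed by macrophages, mast cells or T cells, which the uterus contains.

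Among ligands of the receptors, 11 were tested from a list of 17, and edgeR, DESeq2 and limma-voom called 0 of them, with 0 at an unadjusted *p*-value under 0.05 in edgeR. *H2-T23*, the Qa-1 ligand of NKG2A and NKG2C, was at 21.8 ± 6.93 and 19.6 ± 4.23 CPM, and *Clec2d*, the ligand of the *Klrb1b* product, at 38.3 ± 5.45 and 35.4 ± 3.00 CPM (SD, n = 4 each). The NKG2D ligands tested were *Ulbp1* (log2 fold change 0.00), *Raet1e* (0.07), *Raet1d* (-0.44) and *H60c* (0.42), with adjusted *p*-values from 0.276 to 0.999. The class I genes *H2-D1*, *H2-K1* and *B2m*, chosen with their values in view, differed on the log2 scale by -0.54, -0.93 and -0.82 with adjusted *p*-values from 0.240 to 0.345, and their high values were those of control replicates 1 and 2.

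Of 15 other NK cell genes tested from a list of 18, 8 had an adjusted *p*-value under 0.05, against 2.71% lower over all genes, all of them lower in cKO. Over the 15, the median was -1.80 on the log2 scale. DESeq2 called 10 and limma-voom 6. Those called in edgeR were the surface protein gene *Cd7* (-3.02), the chemokines *Xcl1* (-2.56) and *Ccl5* (-1.97), the granzymes *Gzma* (-2.32) and *Gzmb* (-1.68), the granule gene *Nkg7* (-2.14), *Samd3* (-2.02) and *Il2rb* (-1.80), the chain shared by the receptors of interleukin 2 and interleukin 15. The 7 that did not pass were *Prf1* (-2.03), *Tbx21* (-1.47), *Ctsw* (-1.26), *Cd160* (-1.16), *Txk* (-1.0), *Cd244a* (-0.44) and *Itga2* (-0.11), with adjusted *p*-values from 0.0515 to 0.694. With the fat score, 1 of the 15 was called, where the genes called lower over all genes fell from 452 to 45. *Eomes*, a transcription factor that defines NK cells, was under the filter with 6 to 10 counts in control and 2 to 5 in cKO libraries. The list summed to 20.8 to 36.2 CPM in control and 9.70 to 12.7 CPM in cKO libraries. *Samd3* passed the filter through its control libraries alone.

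Markers of other cells in the uterus are given beside these counts, since *Klrk1*, *Klrd1* and *Klrc1* can also be expressed by T cells. Of 7 T cell genes tested from 10, all 7 had negative log2 fold changes and 3 an unadjusted *p*-value under 0.05, and edgeR called 1, DESeq2 2 and limma-voom 0. The gene called in edgeR was *Tcf7* (log2 fold change -0.26, adjusted *p* = 0.0449), whose 64.2 ± 3.71 CPM in controls (SD, n = 4) made up most of the summed list. That list was lower in every cKO library (55.2 to 64.8 CPM) than in every control (70 to 72.9 CPM). Of the other T cell genes tested, only *Cd3d* showed this order. *Cd3e*, *Cd3g*, *Cd4*, *Cd5* and *Cd28* overlapped between genotypes. The CD3 genes *Cd3d*, *Cd3e* and *Cd3g*, chosen with their values in view, differed on the log2 scale by -1.46, -0.34 and -0.70 with adjusted *p*-values of 0.0642, 0.710 and 0.229. *Cd8a* had 29, 30, 5 and 1 counts in control and 3, 4, 10 and 2 in cKO libraries, so that its high values were again in control replicates 1 and 2. Of 5 B cell, 8 macrophage and 8 pan-leukocyte genes tested, edgeR called 0 in either direction. At an unadjusted *p* under 0.05 these lists held 1 gene that was higher (*Ms4a1*, 0.77), 0 genes, and 2 genes that were lower (*Ptprc*, -0.55, and *Cd52*, -0.95, adjusted *p* = 0.0509), and DESeq2 called 0, 0 and 1 of them and limma-voom 0 in each. Of the 8 pan-leukocyte genes, 7 had negative log2 fold changes. The pan-leukocyte list summed to 92.2 to 136 CPM in control and 92.1 to 108 CPM in cKO libraries. Of 6 innate lymphoid genes, *Il1rl1* was higher (0.76, adjusted *p* = 0.0371). The part of T cells in the receptor counts was not tested.

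Of 6 fat cell genes tested, *Adrb3* was called and higher (1.34, adjusted *p* = 0.00204), where DESeq2 called all 6, and of 5 stromal genes, *Col3a1* was (0.36, adjusted *p* = 0.0454). In red blood cell, epithelial, muscle and endothelial lists edgeR called 0 genes, with 0, 2, 1 and 2 at an unadjusted *p* under 0.05, limma-voom called 0, and DESeq2 called 0, 1, 1 and 0. The 10 receptor genes summed to 2.28 CPM in cKO replicate 4, whose fat list was at 4.90 CPM, and to 3.15, 3.01 and 1.88 CPM in cKO replicates 1 to 3, against 5.46 to 12.1 CPM in controls. In the fit with the fat score and in that of cKO replicate 4 alone, whose spread comes from the controls only, 0 of the 6 DE genes kept an adjusted *p*-value under 0.05, and 4 of the 6 lay further below 0 on the log2 scale than with all libraries and no covariate. The part of fat in the receptor counts was not tested.

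**Figure D3:**
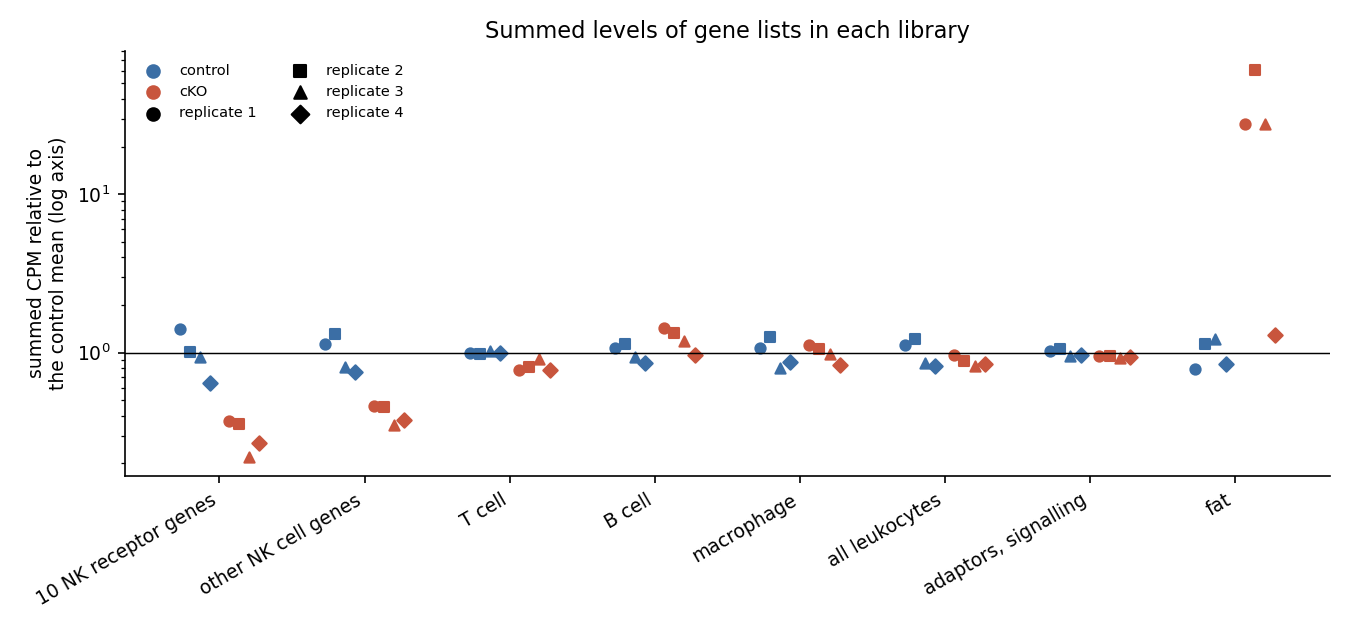
Summed CPM of the receptor genes and 7 marker lists in each library, relative to the mean of the 4 control libraries (vertical log axis); colours give the genotype and symbols the replicate number. The receptor genes, other NK cell genes, T cell list and adaptor and signalling list are lower in all cKO libraries than in all controls. The T cell sum is mostly *Tcf7*. The B cell, macrophage and pan-leukocyte lists overlap between genotypes, and the fat list is high in cKO replicates 1 to 3 only.

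Genes whose profile over the 8 libraries was closest to the summed receptor level were taken from 14454 genes with a mean of at least 1 CPM, by the root mean square difference of centred log2 levels. They were *Gli1* (0.24), *Il2rb* (0.26), *Ms4a4b* (0.30), *Edil3* (0.30) and *Has2* (0.33), all lower in cKO uteri with log2 fold changes from -1.80 to -1.44. *Il2rb* and *Ms4a4b* are lymphocyte genes, *Gli1* is a transcription factor of hedgehog signaling, *Edil3* encodes a matrix protein and *Has2* a hyaluronan synthase. The likeness rests in large part on the difference between genotypes that these genes share.

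Fold changes were recomputed with other settings, tools and sets of libraries. The direction was lower in cKO uteri for all 7 genes in all fits that could be made, 21 to 23 for each gene. With a filter of CPM over 1, 2 of the genes were fitted and both were DE. With cKO replicate 4 alone, in which a lone library stands for its genotype, is assumed to vary like the controls and gives no spread of its own, the log2 fold changes were -3.22 for *Ncr1*, -2.65 for *Klrk1*, -1.53 for *Klrb1c*, -2.62 for *Klrc1*, -0.61 for *Klrb1b*, -2.10 for *Klrd1* and -1.59 for *Klre1*, with adjusted *p*-values from 0.0734 to 0.972. With the fat score and all 8 libraries they were, in the same order, -3.14, -2.76, -1.48, -2.56, -0.48, -2.20 and -1.86, with adjusted *p*-values from 0.0624 to 0.945. In both fits *Ncr1*, *Klrk1*, *Klrb1c* and *Klrd1* lay further below 0 than as reported, and *Klrc1*, *Klrb1b* and *Klre1* nearer to it.

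**Figure D4:**
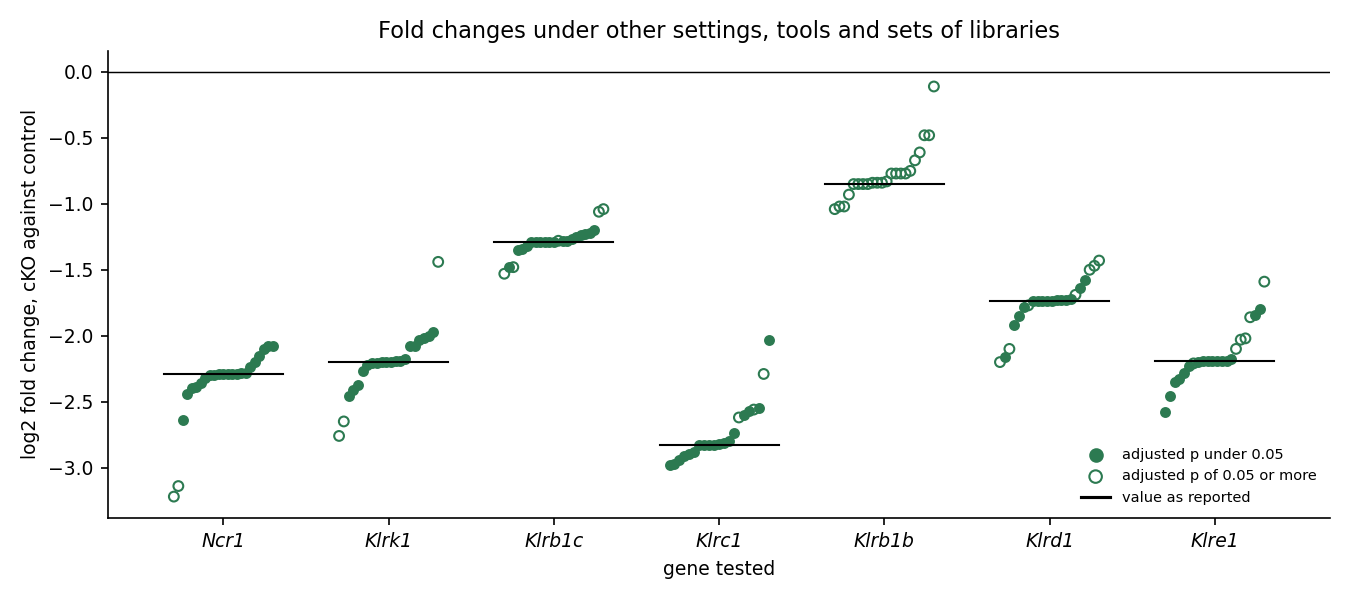
Log2 fold change, cKO against control (vertical axis), of the 7 genes tested under each other setting, tool or set of libraries (points, sorted by value), with the value as reported as a black line. Points lie under 0 for every gene, filled where the adjusted *p*-value is under 0.05, and *Klrb1b* has no filled point.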

How the data were processed

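Total RNA of whole uteri was sequenced from TruSeq stranded mRNA libraries. The authors trimmed reads with Trimmomatic, aligned them to GRCm38 with HISAT2 and deposited raw counts per Entrez gene from featureCounts. Versions, annotation release, strand setting and the treatment of reads with several matches are not given in the sources used here. The authors' edgeR table was used for gene symbols only, and its fold changes and *p*-values were not used, nor was their table of log2 CPM. RefSeq names (GRCm38.p6) filled gaps, so that 25440 of 27179 genes had a name.

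Counts were analysed with edgeR 4.0.16 in R 4.3.3: genes over 0.2 CPM in at least 4 libraries, TMM scaling, glmQLFit (robust = TRUE) with glmQLFTest, and Benjamini-Hochberg adjustment over all 16658 genes tested, where the tool, filter, scaling, robust setting and adjustment follow the methods of the paper and the choice of the quasi-likelihood test does not come from there. All adjusted *p*-values in the text are of this kind unless another fit is named. The standard error is the size of the log2 fold change divided by the square root of F. Intervals and the 3-count limit (0.0824 to 0.117 CPM) cover counting error only. The labels do not state litters, so *p*-values measure the spread between these mice, and no pair of libraries within a genotype differed by as little as sampling noise (chi-square per gene 7.49 to 21.3). Exact permutation tests used log2(CPM + 0.1) and 70 arrangements, and cannot give *p* under 0.029. On simulated counts for 16540 genes, 191 of 196 genes changed 4-fold were recovered with 1 false call. The changed genes were drawn over all levels and no library was made to stand apart. Recovery at the low counts of the receptor genes was thus not measured.

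Alternatives were DESeq2 1.42.0, limma-voom 3.58.1, a likelihood ratio test, other normalizations, filters, priors and sets of libraries, a replicate block and a fat score covariate. GENCODE M21 transcripts gave lengths and shared 50-base stretches, and coding sequences were aligned with Biopython 1.88. Named genes are the 10 receptors, *Ezh2*, called members of each list, set adaptors and ligands, and the 5 genes closest in profile; any other gene named was picked with its value in view. The receptor genes, lists and tests were chosen with earlier results of these data known.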

Additional observations from a re-analysis of the deposited data

Results flagged for a closer look

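Within each genotype, the 4 libraries of each of the 10 receptor genes were checked for a value far from the other 3. Of 19 sets with any spread, 1 was marked: the single count of *Klra4* in control replicate 2, where the other controls had 0, so that the gap made up the whole range (ratio of gap to range 1). Chance marks about 5% of such sets, and a single read is within the limit that a count of 0 allows.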

How the results depend on the processing

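The 6 DE receptor genes were also the count with an adjusted *p*-value alone. This count was 2 with a filter of CPM over 1, which kept 2 of the 10 genes. It was 3 to 6 over the 8 fits without a library (lowest without control replicate 1). With the fat score as a covariate it was 0, and without control replicates 1 and 2, a choice made after seeing the data, it was 1. For the 6 DE genes the adjusted *p*-value over all alternatives was at most 0.0734 for *Ncr1* and at most 0.606 for *Klre1*, and 0 of 7 genes changed direction. The 8 other NK cell genes called were 4 with CPM over 1, 5 to 9 without a library (5 without control replicate 1 or cKO replicate 2 or 3), 0 with cKO replicate 4 alone, 1 with the fat score and 5 without control replicates 1 and 2. The 1 other lectin receptor called was 2 with the likelihood ratio test, 2 without the filter, 0 with CPM over 1, 0 with cKO replicate 4 alone, 0 with the fat score and 1 to 2 without a library. Adaptors and ligands had 0 to 1 called without a library (1 without cKO replicate 4). The 6 lectin receptor genes called in the NK gene complex were 1 with CPM over 1, 3 to 6 without a library, 0 with cKO replicate 4 alone, 0 with the fat score and 1 without control replicates 1 and 2. Fewer libraries or genes enter several of these fits, and the cause was not tested. Over all genes, 106 DE and lower became 85 without control replicate 1 and 83 without control replicates 1 and 2. With control replicate 2 or 4 left out, 6 receptor genes were DE, and 4 with control replicate 3 left out. With the replicate number as a block, 6 receptor genes were DE and 10 other NK cell genes were called, and no receptor gene changed its call. The numbers are only shared names: deviations of same-numbered libraries from their group means correlated by 0.00 to 0.19, and 1 of 4 control libraries correlated best with its own number. The counts behind each gene, 55 to 234 over 4 control libraries for the 7 genes tested, limit the precision.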

Other observations

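The makeup of the receptor counts was compared between genotypes, a comparison chosen after seeing the data. *Klrb1c* and *Klrb1b* made up 22.7% and 10.1% of the receptor counts in control and 31.0% and 18.5% in cKO libraries, while *Ncr1* made up 19.7% and 13.1% and *Klrk1* 18.2% and 13.1%. The log2 ratio of each of the 7 tested genes to the sum of the other receptor genes in the same library was tested with exact two-sided permutation tests. The difference, cKO minus control, was 0.69 for *Klrb1c* (p = 0.029, the smallest that 4 mice against 4 allow, exact permutation test) and 1.16 for *Klrb1b* (p = 0.057, exact permutation test). After adjustment over the 7 relations the exact permutation *p*-value was 0.20 for both genes and from 0.27 to 0.74 for the others, but a lone gene at the smallest *p*-value adjusts to 0.20 over 7 relations, so that this adjustment could not have passed it and the values are a description. *Klrd1*, *Klrc1* and *Klre1* differed from the rest by 0.12, -0.12 and -0.09, less than the SD within a genotype. These ratios used CPM + 0.1, which is more than the mean cKO level of *Klrc1* (0.0614 CPM) and pulls its ratio towards 0. By share of the receptor counts, *Klrc1* made up 5.34% in control and 2.36% in cKO libraries. *Klre1* made up 7.57% and 5.39%, and *Klrd1* 14.4% and 14.1%.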
